A study of Homo sapiens with 36 samples.

Results

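Transcripts of 10 plasma membrane amino acid transporter genes were followed: SLC38A5, SLC7A5, SLC3A2, SLC1A5, SLC7A11, SLC38A1, SLC38A2, SLC1A4, SLC43A1 and SLC6A9. They are a list of names among 58302 genes with deposited read counts, chosen with earlier results of these data known, and all 10 passed the low-count filter in every line. JEKO, MINO and UPN-1, established human lines of mantle cell lymphoma, were treated with vehicle (DMSO) or with GS716054 and collected after 24 h or 72 h. GS716054 inhibits the KDM5 enzymes, which remove methyl groups from lysine in histones. This gave 12 groups of 3 biological replicates: DMSO 24 h, GS716054 24 h, DMSO 72 h and GS716054 72 h in each line. All cells were kept in RPMI medium with serum and added L-glutamine, and the dose of GS716054 was not given in the sources used here. The labels do not say whether replicates were separate cultures, so p-values measure the spread between these libraries, and every line is a single established line.

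Amino acid transporters bring in building blocks for protein and nucleotide synthesis and feed the sensing of amino acids by mTORC1, and proliferating lymphoid cells are known for high transporter levels. SLC7A5 (LAT1) is the light chain that exchanges glutamine for leucine and other large neutral amino acids, and it reaches the membrane only when bound to the heavy chain SLC3A2 (4F2hc, CD98). SLC1A5 (ASCT2) and SLC1A4 (ASCT1) exchange small neutral amino acids, while SLC38A1, SLC38A2 and SLC38A5 take up glutamine together with sodium. SLC7A11 (xCT) also pairs with SLC3A2 and exchanges cystine for glutamate, SLC43A1 (LAT3) is a facilitative carrier of large neutral amino acids that needs no heavy chain, and SLC6A9 (GLYT1) imports glycine. Several of these genes are textbook targets of ATF4, the transcription factor of the amino acid response, and some are known targets of MYC.

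Libraries held 8784815 to 14970876 reads in genes (median 11926903). B cell markers were present in every line, with 6 of 6 detected and a summed normalised count of 1327 to 5198 CPM per library. CCND1 and SOX11, which mark mantle cell lymphoma, summed to 1292 to 3439 CPM. T cell, myeloid, epithelial and fibroblast markers summed to at most 16 CPM each, and COL1A2 was at 0 in JEKO and MINO. No library repeated another: the lowest chi-square per degree of freedom was 3.2 over the 36 pairs of libraries within groups and 4.16 over the 594 pairs between groups.

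Promoter sequences show which letters the transporters share around their starts, so they are given for members whose windows hold a match to 1 of the motifs searched. RefSeq (GRCh38.p14) gave 16 promoter windows, from 250 bases before to 50 after a start, for 9 of the 10 genes. SLC7A11 had no entry. On both strands, CACGTG (the E-box bound by MYC among other factors) was found in 4 of 16 windows, of SLC38A5, SLC7A5, SLC1A5 and SLC43A1, against 7.26% of 35116 windows of the same length over all genes. TGATGNAA (the core of the amino acid response element bound by ATF4 with C/EBP partners) was found in 4 of 16 windows, of SLC3A2, SLC1A5, SLC38A1 and SLC1A4, against 3.62%. TGACNNNGC (the core of the antioxidant response element) was found in 3 of 16 windows, of SLC7A5, SLC3A2 and SLC1A5, against 13.3%. The matches for 1 motif do not overlap those for another in these windows. A match describes letters only and is no evidence of binding.

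The stretches upstream of the starts of the 3 genes with CACGTG in their main window, and a short stretch around that site in SLC1A5, are printed 5′ to 3′ on the gene's strand with CACGTG in capitals. They lie at chrX:48470261-48470510 for SLC38A5, chr16:87869508-87869757 for SLC7A5, chr11:57515781-57515952 for SLC43A1 and chr19:46787326-46787355 for SLC1A5, all on the minus strand.
SLC38A5: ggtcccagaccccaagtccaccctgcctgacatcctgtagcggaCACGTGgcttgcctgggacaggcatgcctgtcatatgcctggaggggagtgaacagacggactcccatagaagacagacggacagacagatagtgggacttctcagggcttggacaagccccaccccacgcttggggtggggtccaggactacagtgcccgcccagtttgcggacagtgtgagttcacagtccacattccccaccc
SLC7A5: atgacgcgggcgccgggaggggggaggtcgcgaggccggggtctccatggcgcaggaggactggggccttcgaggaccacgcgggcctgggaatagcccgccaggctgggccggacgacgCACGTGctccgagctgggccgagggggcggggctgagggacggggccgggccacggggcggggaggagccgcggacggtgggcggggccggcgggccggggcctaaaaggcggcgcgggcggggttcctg
SLC43A1: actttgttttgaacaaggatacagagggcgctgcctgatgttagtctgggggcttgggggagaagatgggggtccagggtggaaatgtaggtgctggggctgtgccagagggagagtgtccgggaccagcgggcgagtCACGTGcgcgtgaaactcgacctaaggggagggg
SLC1A5: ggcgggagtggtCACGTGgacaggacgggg

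Short stretches around the TGATGNAA matches are printed in the same way, with the match in capitals. On the gene's strand the match reads as the reverse complement in SLC3A2 and SLC1A4. The windows lie at chr11:62881719-62881748 (plus strand) for SLC3A2, chr19:46784893-46784922 (minus) for SLC1A5, chr12:46266502-46266531 (minus) for SLC38A1 and chr2:64989381-64989410 (plus) for SLC1A4. Both SLC1A5 sites belong to starts that RefSeq places inside the gene, downstream of its outermost start. The same holds for the matches in SLC3A2, SLC38A1 and SLC1A4. In SLC3A2 the match begins at base 38 counted from that start, so it lies downstream of it.
SLC3A2: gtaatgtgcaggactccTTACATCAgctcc
SLC1A5: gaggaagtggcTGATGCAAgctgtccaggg
SLC38A1: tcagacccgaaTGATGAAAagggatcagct
SLC1A4: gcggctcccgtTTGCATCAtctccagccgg

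In untreated cells SLC7A5 and SLC1A5 were the most abundant of the transporters per length, and SLC7A11 and SLC6A9 the least. Levels between genes are compared as CPM (counts per unit of TMM-scaled library size) per kilobase of exon, as mean ± SD of the 3 DMSO 24 h libraries. Exon length was the union of all annotated exons of a gene, 4764 bases for SLC7A5 and 6392 for SLC3A2. Comparisons between genes depend on this choice, since the transcripts in use may be shorter. In JEKO SLC7A5 stood at 135 ± 12, in MINO at 62.4 ± 3.17 and in UPN-1 at 121 ± 20. SLC1A5 stood at 73.6 ± 9.79, 72.4 ± 8.01 and 88.3 ± 6.44 in the same order, so that it was the higher of the pair in MINO, by less than their summed spread. The sodium-coupled glutamine carriers came next, with SLC38A1 at 36.4 ± 0.914, 58.7 ± 8.17 and 46 ± 3.55 and SLC38A2 at 35.3 ± 1.03, 51.7 ± 6.11 and 41.8 ± 1.61.

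The heavy chain SLC3A2 was at 35.4 ± 1.41 CPM per kilobase in JEKO, at 23.5 ± 0.758 in MINO and at 34.7 ± 4.51 in UPN-1 cells. On this length scale it was well under its partner SLC7A5 in each line. In JEKO, SLC38A1, SLC3A2 and SLC38A2 were neighbours that did not differ beyond their spread. SLC38A5 was at 24.8 ± 3.92, 26.2 ± 1.72 and 4.53 ± 0.78, SLC1A4 at 14.2 ± 3.89, 20.5 ± 4.81 and 31.6 ± 2.3, and SLC43A1 at 9.33 ± 2.01, 6.3 ± 1.29 and 4.58 ± 0.375. SLC7A11 was at 0.978 ± 0.153, 0.365 ± 0.101 and 0.779 ± 0.237, and SLC6A9 at 0.383 ± 0.0976, 0.741 ± 0.314 and 0.892 ± 0.102. In UPN-1, SLC43A1 and SLC38A5 had all but equal levels, and SLC6A9 and SLC7A11 lay within their spread of each other.

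**Figure D1:**
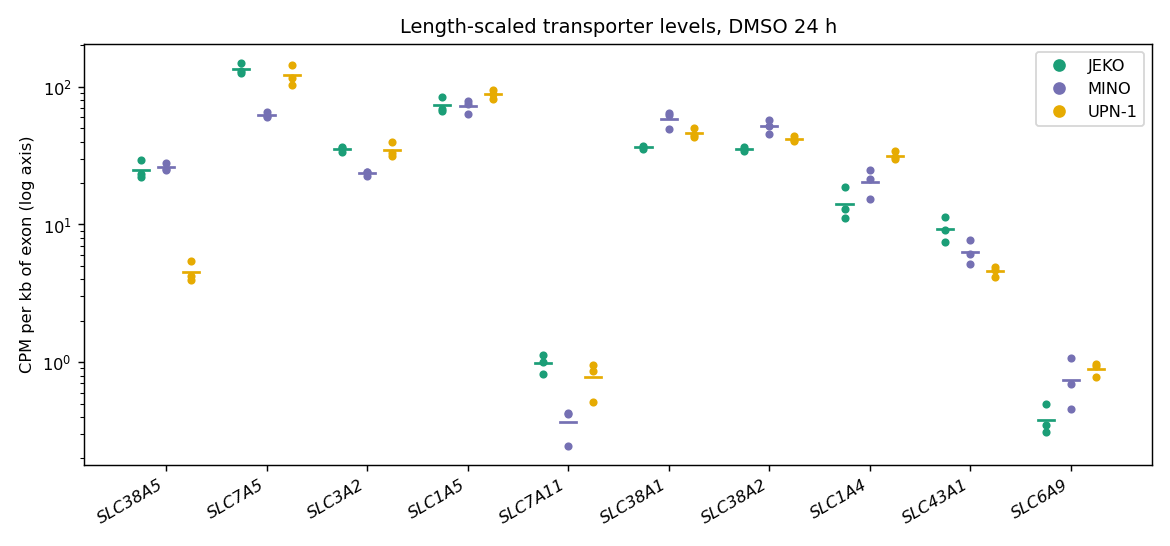
Length-scaled level (CPM per kilobase of exon, log axis) of the 10 transporters in the 3 DMSO 24 h libraries of each line; points are libraries and bars group means. SLC38A5 separates UPN-1 (mean 4.53) from JEKO (24.8) and MINO (26.2), and SLC7A5 is lowest in MINO (62.4).

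The lines differed most in SLC38A5. In DMSO 24 h cells of replicates 1, 2 and 3 JEKO had 88.4, 92.5 and 117 CPM, MINO 102, 113 and 100, and UPN-1 15.8, 17 and 21.7, so that UPN-1 did not overlap either of the others. In 1 edgeR fit of all 36 libraries, SLC38A5 was 5.45-fold lower in UPN-1 than in JEKO (log2 fold change -2.45, SE 0.208, adjusted p = 3.34e-11) and 5.76-fold lower than in MINO (adjusted p = 1.57e-11). Differences between lines were common over all genes: 48% of the 17980 genes tested were called (edgeR's quasi-likelihood test, threshold 0.05 on p after Benjamini-Hochberg adjustment across the whole table) between MINO and JEKO, 44.9% between UPN-1 and JEKO and 44.4% between UPN-1 and MINO. Of the 10 transporters, 5, 3 and 5 were called in these comparisons, near the background.

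MINO had lower SLC7A5 than JEKO (log2 fold change -1.11, adjusted p = 0.000504), lower SLC3A2 (-0.59, adjusted p = 0.022) and lower SLC7A11 (-1.43, adjusted p = 0.00984), all by edgeR. It had higher SLC38A1 (0.69, adjusted p = 0.000237) and SLC38A2 (0.55, adjusted p = 0.000512). UPN-1 had higher SLC1A4 than JEKO (1.15, adjusted p = 0.000839) and lower SLC43A1 (-1.03, adjusted p = 0.0037). Against MINO, UPN-1 had higher SLC7A5 (0.96), SLC3A2 (0.57) and SLC7A11 (1.11) and lower SLC38A2 (-0.30), with adjusted p of 0.00239, 0.031, 0.0491 and 0.0466. These 4 calls were lost without replicate 1 or replicate 3 of every group (adjusted p up to 0.353). Of the same calls, SLC3A2 was lost with the stricter low-count filter (0.0548), SLC7A11 with that filter (0.0657) or DESeq2's size factors (0.0565), and SLC38A2 with no filter (0.26). The MINO to JEKO difference was lost for SLC3A2 without replicate 1 or 3 (up to 0.203) and for SLC7A11 without replicate 3 (0.107).

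**Figure D2:**
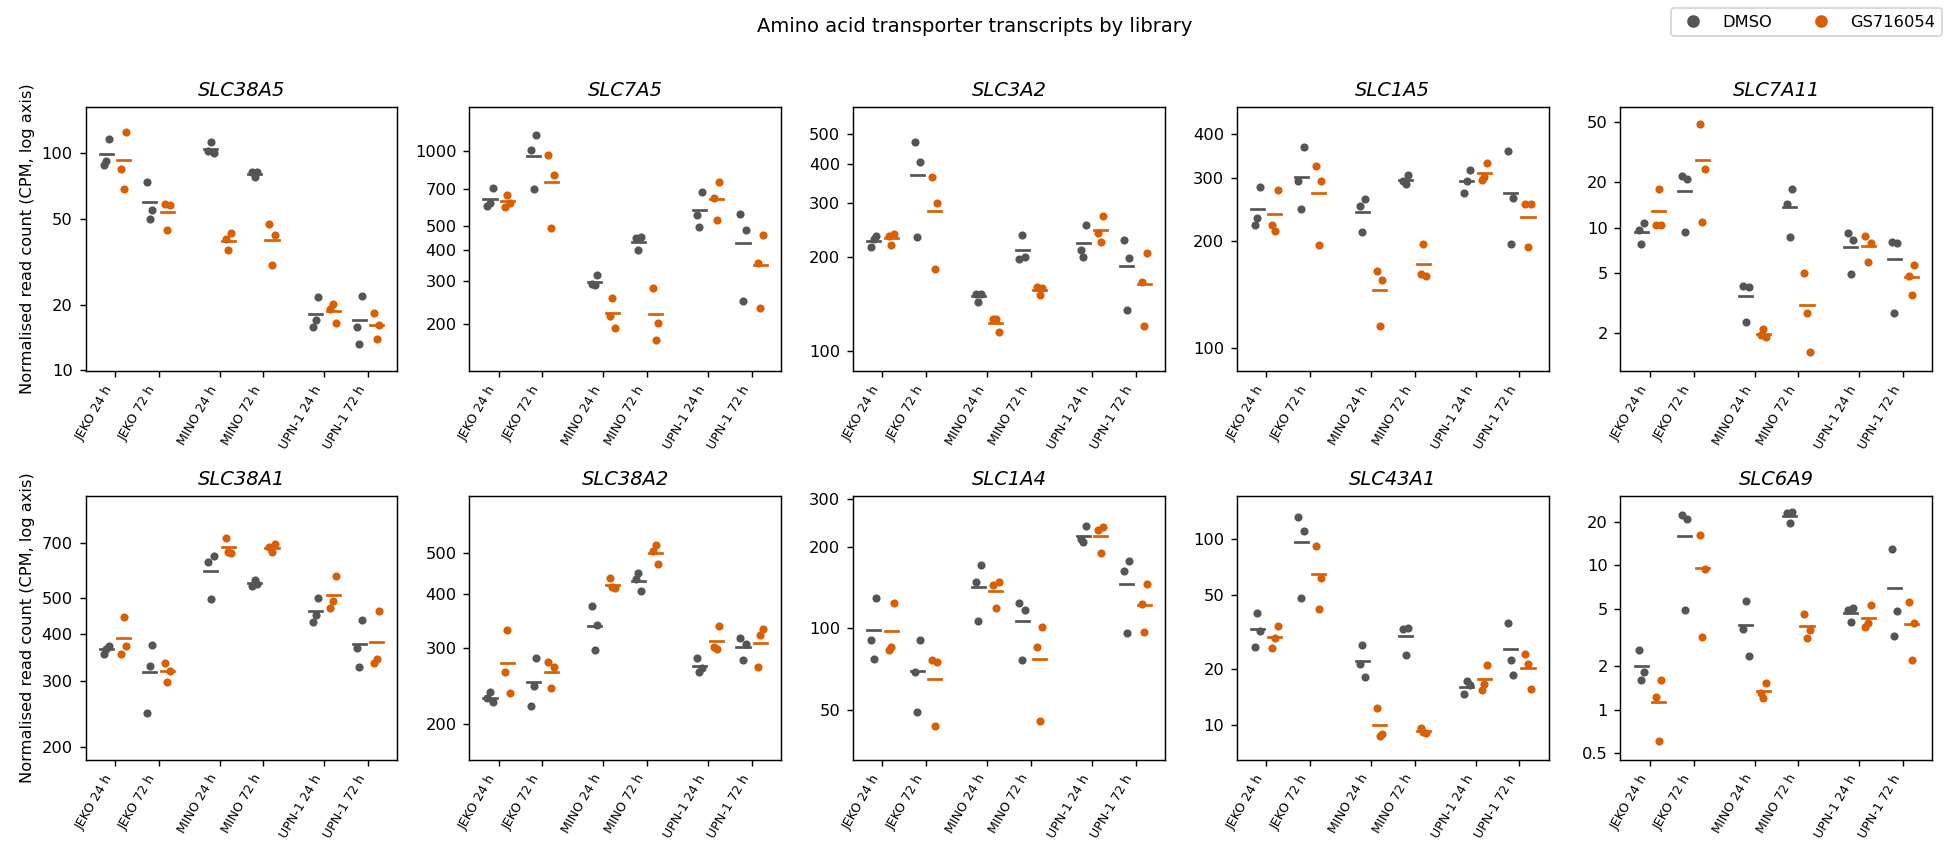
Normalised read count (CPM, log axis) of each transporter in all 36 libraries, by line and time, with DMSO in grey and GS716054 in orange; points are libraries and bars group means. In MINO the GS716054 libraries lie below all DMSO libraries of the same time for 7 genes and above them for SLC38A1 and SLC38A2.

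GS716054 lowered most of the transporters in MINO. In JEKO and UPN-1 no transporter was called, except SLC6A9 in UPN-1 at 72 h when the replicate number was a block within time (-0.74, adjusted p = 0.0414, edgeR). In MINO 4 of the 10 fell at 24 h (SLC38A5, SLC1A5, SLC43A1 and SLC6A9) and 7 fell at 72 h (these 4 with SLC7A5, SLC3A2 and SLC7A11). None rose by edgeR or DESeq2, although SLC38A2 at 24 h and SLC38A1 at 72 h were higher at an unadjusted p of 0.0348 and 0.0394. Over all 15028 genes tested in MINO, 2.39% were called at 24 h (0.952% lower) and 5.56% at 72 h (2.05% lower). The 10 transporters had a median log2 fold change of -0.61 at 24 h, where that of the whole table was 0.01, and of -0.90 at 72 h, where it was -0.03. In bulk RNA, fewer expressing cells and less transcript per cell cannot be told apart. Same-numbered DMSO and GS716054 libraries of MINO deviated together, and a fit with the replicate number as a block within each time added SLC7A5 at 24 h (adjusted p = 0.0328) and SLC1A4 at 72 h (adjusted p = 0.00915), with 15.8% and 20.2% of all genes called.

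The GS716054 libraries of MINO lay wholly below the DMSO libraries for 7 of the 10 genes at 24 h (15.2% of all genes did) and at 72 h (10% did). They lay wholly above for SLC38A1 and SLC38A2 at both times, as 19.9% and 12.4% of all genes did. SLC1A4 overlapped at both times. The CPM of the 10 genes summed to 2183, 2136 and 2180 in the DMSO 72 h libraries and to 1936, 1795 and 1841 in the GS716054 72 h libraries, lower throughout. At 24 h the sums overlapped, at 1971, 1687 and 2012 with DMSO and 1862, 1740 and 1739 with GS716054. With only the 6 libraries of 72 h in the fit, 2 of the 7 calls were kept, SLC43A1 and SLC6A9, with 0.691% of all genes called, and the other adjusted p ran from 0.0659 to 0.244. With only the 6 libraries of 24 h, 6 were called, as SLC7A5 and SLC3A2 were added, with 18.2% of all genes.

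Among carriers of large neutral amino acids, SLC7A5 had 290, 287 and 315 CPM in the MINO DMSO 24 h libraries (replicates 1, 2 and 3) and 216, 254 and 193 with GS716054. At 72 h it had 446, 397 and 448 CPM with DMSO and 279, 173 and 203 with GS716054. The treated libraries were below all DMSO libraries at each time. The log2 fold change was -0.46 (SE 0.175, adjusted p = 0.191, edgeR) at 24 h and, by 72 h, -0.99 (SE 0.177, adjusted p = 0.00739), or 1.99-fold lower. At 24 h edgeR called it with the replicate block within time (adjusted p = 0.0328) and with only the 6 libraries compared (0.0116, with 18.2% of all genes). With only the 6 libraries compared at 72 h the call was lost (0.0915). Its exons share 5.69% of their bases with ENSG00000260466 on the opposite strand (15.7 to 101 CPM), and whether counting used strand is not given in the sources used here. The pseudogene SLC7A5P1 had 0.284 to 4.96 CPM, and SLC7A5P2 was at 0 in all libraries. GENCODE places SLC7A5 (ENSG00000103257) at chr16:87830023-87869507 on the minus strand (GRCh38).

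SLC3A2, the partner chain of SLC7A5, had 153, 144 and 153 CPM with DMSO and 127, 127 and 115 with GS716054 at 24 h in MINO. At 72 h it had 197, 237 and 200 CPM against 160, 151 and 159. The groups did not overlap at either time, but the differences were small: a log2 fold change of -0.32 (adjusted p = 0.162, edgeR) at 24 h and of -0.44 at 72 h (adjusted p = 0.0382), both with SE 0.113. The 24 h change was called by DESeq2 (adjusted p = 0.0477, with 6.29% of all genes) and by edgeR with only the 6 libraries compared (0.0261, with 18.2%). The 72 h call was lost without DMSO replicate 1 or 3 or without any of the 3 GS716054 libraries, with an adjusted p from 0.0528 to 0.0823, and with no low-count filter (0.131), all 36 libraries in 1 fit (0.233) or only the 6 libraries compared (0.244). The length-scaled level of SLC3A2 divided by that of the listed light chains SLC7A5 and SLC7A11 together was 0.363 ± 0.0658 in DMSO 72 h cells (0.324 to 0.439) and 0.55 ± 0.115 in GS716054 72 h cells (0.423 to 0.645). The ranges overlapped, yet within same-numbered libraries the ratio was higher with GS716054 in 3 of 3 pairs, at 0.324 against 0.423, 0.439 against 0.645 and 0.327 against 0.581. At 24 h the MINO pairs were 0.39 against 0.438, 0.373 against 0.37 and 0.36 against 0.44. At 72 h replicate 1 of JEKO (0.344 against 0.275) and replicate 2 of UPN-1 (0.404 against 0.379) were lower with GS716054, and the remaining pairs of these lines were higher. The gene model has SLC3A2 (ENSG00000168003) at chr11:62856004-62888880 on the plus strand.

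SLC43A1, the carrier that needs no heavy chain, fell further than SLC7A5 and SLC3A2 by point estimate. It had 21.4, 27.1 and 18.1 CPM with DMSO and 12.3, 8.71 and 8.92 with GS716054 at 24 h in MINO. At 72 h it had 32.7, 23.9 and 33.4 CPM against 9.65, 9.16 and 9.09. The treated libraries lay below all DMSO libraries, and at 72 h they hardly varied. The log2 fold change was -1.19 (SE 0.207, adjusted p = 0.0146, edgeR) at 24 h and, by 72 h, -1.71 (SE 0.208, adjusted p = 0.000943). The 24 h call was lost when DMSO replicate 1 or 2 was left out, or GS716054 replicate 2 or 3 (adjusted p up to 0.0997), and the 72 h call was kept without any 1 library. GRCh38 has SLC43A1 (ENSG00000149150) at chr11:57484534-57515780 on the minus strand.

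Of the exchangers of small neutral amino acids, SLC1A5 fell and SLC1A4 was not called. SLC1A5 had 250, 211 and 262 CPM with DMSO and 164, 115 and 155 with GS716054 at 24 h in MINO, and 294, 289 and 306 against 161, 196 and 159 at 72 h. No treated library reached a DMSO library at either time. The log2 fold change was -0.76 (SE 0.155, adjusted p = 0.0267, edgeR) at 24 h and, by 72 h, -0.80 (SE 0.155, adjusted p = 0.0105). At 24 h, leaving out any of the 6 libraries ended the call (adjusted p 0.0521 to 0.127), and at 72 h it was kept without each. Of its exon bases, 23.4% are shared with ENSG00000275719 on the opposite strand, which itself had 33.1 to 89.3 CPM. The annotation gives SLC1A5 (ENSG00000105281) at chr19:46774883-46788594 on the minus strand.

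SLC1A4 had 148, 106 and 172 CPM with DMSO and 144, 119 and 148 with GS716054 at 24 h in MINO, and 124, 76.3 and 117 against 84.9, 45.4 and 101 at 72 h. The groups overlapped, yet at 72 h the treated library was lower than the DMSO library of the same number in 3 of 3 replicates. The 72 h log2 fold change was -0.48 (SE 0.277, adjusted p = 0.339, edgeR) without a block and -0.51 (SE 0.12, adjusted p = 0.00915) with the replicate block within time. Replicate 2 was the lowest library in both treatments. GENCODE lists SLC1A4 (ENSG00000115902) at chr2:64988477-65023865 on the plus strand.

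The 3 sodium-coupled glutamine carriers did not move together. SLC38A5 fell, with 102, 113 and 100 CPM in DMSO and 40.1, 35.8 and 42.9 in GS716054 libraries of MINO at 24 h, and 81.6, 77.8 and 82.1 against 47.4, 30.6 and 42 at 72 h. The DMSO libraries agreed closely with one another, and every treated library lay far below them. SLC38A5 fell by 1.44 on the log2 scale at 24 h (SE 0.158, 2.71-fold, adjusted p = 0.00166, edgeR) and by 1.02 at 72 h (SE 0.157, 2.03-fold, adjusted p = 0.0033). It stayed called at both times whichever single library was left out. It lists SLC38A5 (ENSG00000017483) at chrX:48458537-48470260 on the minus strand.

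At each time SLC38A1 and SLC38A2 were higher in every treated library of MINO than in every DMSO library of that time, and neither was called. SLC38A1 had 623, 495 and 647 CPM with DMSO and 720, 663 and 660 with GS716054 at 24 h, and 536, 557 and 545 against 681, 662 and 694 at 72 h. Its log2 fold changes were 0.18 (95% interval -0.10 to 0.47) and 0.30 (0.02 to 0.58), with adjusted p of 0.507 and 0.198 by edgeR. SLC38A2 had 375, 296 and 339 CPM against 436, 415 and 413 at 24 h, and 434, 449 and 406 against 503, 522 and 470 at 72 h. Its log2 fold changes were 0.30 (0.02 to 0.57) and 0.20 (-0.07 to 0.47), with adjusted p of 0.237 and 0.376. These intervals reach no larger fall than 0.10 on the log2 scale for either gene. Both genes are on chromosome 12, SLC38A1 (ENSG00000111371) at chr12:46183063-46270017 on the minus strand and SLC38A2 (ENSG00000134294) at chr12:46358188-46372773 on the minus strand.

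The low-abundance carriers SLC7A11 and SLC6A9 had the largest point estimates at 72 h. The cystine carrier SLC7A11 had 4.12, 2.39 and 4.05 CPM with DMSO and 1.96, 2.13 and 1.89 with GS716054 at 24 h in MINO, and 14.4, 8.67 and 18 against 5.06, 2.72 and 1.51 at 72 h. The treated libraries were lower throughout, from few reads at 24 h. The log2 fold change was -0.84 (SE 0.426, adjusted p = 0.332, edgeR) at 24 h and, by 72 h, -2.18 (SE 0.397, 4.53-fold lower, adjusted p = 0.0075), and the 72 h call was kept without any 1 library. Of its exon bases, 8.97% are shared with SLC7A11-AS1 on the opposite strand (0 to 5.73 CPM). The build has SLC7A11 (ENSG00000151012) at chr4:138164097-138242349 on the minus strand.

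The glycine importer SLC6A9 had 3.65, 5.64 and 2.38 CPM with DMSO and 1.3, 1.2 and 1.53 with GS716054 at 24 h in MINO. At 72 h it had 23, 19.8 and 23.4 CPM against 4.59, 3.17 and 3.6. The 72 h groups were far apart, and the DMSO level had risen since 24 h. The treated 72 h libraries lay within the range of the 24 h DMSO libraries, and above all treated 24 h libraries. The log2 fold change was -1.55 (SE 0.32, adjusted p = 0.0285, edgeR) at 24 h and, by 72 h, -2.56 (SE 0.281, 5.9-fold lower, adjusted p = 0.000436). The 24 h call was lost when DMSO replicate 1 or 2 or any GS716054 library was left out (adjusted p up to 0.159), and with all 36 libraries in 1 fit (0.136), and the 72 h call was kept without each library. The opposite-strand gene CCDC24, which shares 7.87% of its exon bases, had 0.193 to 6.07 CPM. The annotation has SLC6A9 (ENSG00000196517) at chr1:43991500-44031467 on the minus strand.

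**Figure D3:**
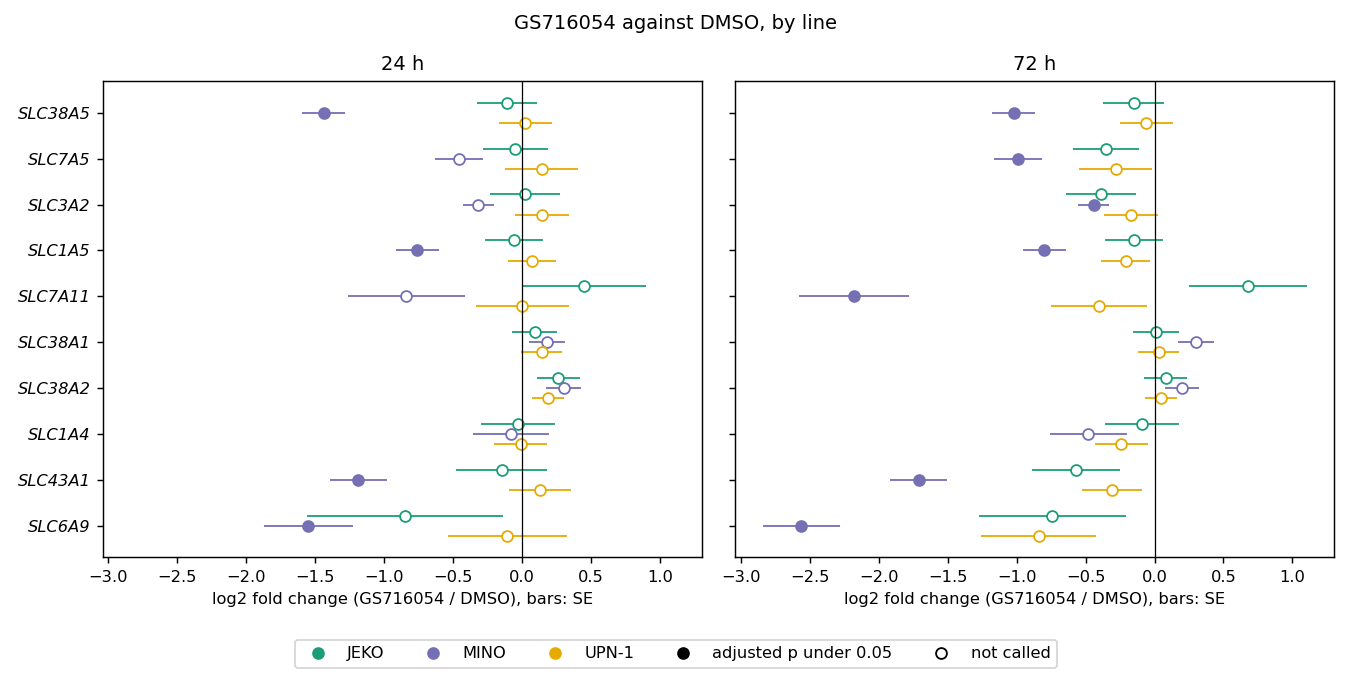
Log2 fold change of GS716054 against DMSO for each transporter by line, at 24 h (left) and 72 h (right); bars are standard errors and filled points have an edgeR adjusted p under 0.05. All 11 filled points are MINO and lie below 0, from -0.44 (SLC3A2) to -2.56 (SLC6A9).

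The effect at 72 h was also compared with that at 24 h. None of the 10 was called in any line (edgeR); in MINO 2 had an unadjusted p under 0.05, SLC6A9 (difference -1.01, interval -1.93 to -0.08) and SLC7A11 (-1.34, interval -2.60 to -0.09), and in JEKO and UPN-1 none did. DESeq2 called 0 as well. Over all genes, 0.0133% were called in MINO and 0 in JEKO and UPN-1.

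In JEKO and UPN-1 few values separated treated from DMSO libraries. At both times edgeR without a block called 0 of 10 in either line, with 0 at an unadjusted p under 0.05, and DESeq2 called 0. Few genes of any kind were called: 0.018% and 0.3% in JEKO and 0.0262% and 0.334% in UPN-1 at 24 h and 72 h. SLC38A5 had 84.8, 68.5 and 126 CPM in JEKO treated for 24 h, around its DMSO libraries, and its log2 fold change was -0.11 (95% interval -0.58 to 0.36). In UPN-1 it had 19.2, 20.3 and 16.5 CPM with GS716054 at 24 h and a log2 fold change of 0.02 (-0.38 to 0.43). Both intervals stop short of the value in MINO. In JEKO at 24 h SLC6A9 was the 1 transporter whose treated libraries, at 1.22, 0.605 and 1.6 CPM, lay wholly below the DMSO libraries, at 2.59, 1.62 and 1.83 (5.51% of all genes did). These are few reads, and its log2 fold change was -0.85 (SE 0.709, 95% interval -2.37 to 0.67).

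In UPN-1 at 24 h SLC38A2 was the 1 transporter wholly above, at 302, 298 and 337 CPM against 284, 264 and 269 (7.79% of all genes did), with a log2 fold change of 0.19 (-0.06 to 0.43). Within same-numbered libraries 5 transporters were higher in 3 of 3 pairs there, SLC7A5, SLC3A2, SLC1A5, SLC38A1 and SLC38A2, as were 20.9% of all genes. At 72 h no transporter separated the groups in either line, and 4 were lower in 3 of 3 pairs in each, as were 18.4% of all genes in JEKO and 21% in UPN-1. Over all libraries of JEKO and then UPN-1, SLC1A5 ranged from 195 to 366 and from 192 to 358 CPM, SLC38A1 from 247 to 444 and 327 to 570, SLC38A2 from 220 to 331 and 264 to 337, and SLC1A4 from 43.6 to 129 and 96.4 to 238. In UPN-1 SLC7A11 ranged from 2.72 to 9.27 CPM.

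At 72 h the point estimates of SLC7A5, SLC3A2, SLC43A1 and SLC6A9 were below 0 in both of these lines, as were those of SLC38A5, SLC1A5 and SLC1A4. SLC6A9 had 22.4, 4.9 and 20.8 CPM with DMSO and 16.2, 3.18 and 9.49 with GS716054 in JEKO, and 13, 3.27 and 4.83 against 5.56, 2.2 and 3.97 in UPN-1. Replicate 2 was low in both treatments, and within each number the treated library was lower, in 3 of 3 replicates of either line. Its log2 fold change was -0.74 (SE 0.533) in JEKO and -0.84 (SE 0.417, adjusted p = 0.726, edgeR) in UPN-1. With the replicate block within time it was called in UPN-1 (-0.74, SE 0.218, adjusted p = 0.0414, with 7.47% of all genes called) and not in JEKO (-0.75, SE 0.201, adjusted p = 0.0703, with 3.33%).

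SLC43A1 and SLC3A2 showed the same arrangement in JEKO at 72 h. SLC43A1 had 132, 48.3 and 111 CPM with DMSO and 91.9, 42 and 61.5 with GS716054, and SLC3A2 had 471, 232 and 406 against 364, 183 and 299. Every treated library was below the DMSO library of its number, while the groups overlapped. With the replicate block within time the log2 fold changes were -0.53 (adjusted p = 0.0635, edgeR) and -0.38 (adjusted p = 0.0633), short of the threshold. SLC7A11 went the other way in JEKO at 72 h, with 22, 9.32 and 21.2 CPM against 48.7, 10.9 and 24.5, higher in 3 of 3 replicates but not called (0.68, interval -0.24 to 1.59).

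Whether the effect differed among the 3 lines was tested in 1 fit of all 36 libraries. It differed for SLC38A5 at 24 h (adjusted p = 0.021, edgeR, 0.106% of genes called) and for SLC7A11 at 72 h (adjusted p = 0.0338, 1.02% called). For SLC38A5 the log2 fold changes were -1.44, -0.11 and 0.02 in MINO, JEKO and UPN-1, and for SLC7A11 they were -2.18, 0.68 and -0.40. The SLC38A5 call was lost without replicate 1, 2 or 3 of every group (adjusted p 0.818, 0.125 and 0.292), and the SLC7A11 call without replicate 1 or 3 (0.426 and 0.796). With the replicate block within time, 3 were called at 24 h (SLC38A5, SLC1A5 and SLC43A1, with 5.74% of all genes) and 6 at 72 h (SLC38A5, SLC7A5, SLC1A5, SLC7A11, SLC43A1 and SLC6A9, with 9.79%). In JEKO at 24 h the numbers did not meet the rule for pairing, as 1 of the 3 correlations was 0.07.

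Culture time was compared within DMSO cells, and SLC6A9 rose from 24 h to 72 h in JEKO and MINO. In JEKO, 4 of 10 were called between 72 h and 24 h, where 31.7% of all genes were: SLC6A9, SLC43A1 and SLC3A2 rose and SLC38A5 fell. SLC6A9 went from 2.59, 1.62 and 1.83 CPM to 22.4, 4.9 and 20.8 (log2 fold change 3.00, SE 0.608, adjusted p = 0.00343, edgeR), without overlap. SLC43A1 went from 26.2, 40.3 and 32.2 CPM to 132, 48.3 and 111 (1.56, SE 0.331, adjusted p = 0.00417), again without overlap. In both genes replicate 2 was the lowest of the 72 h libraries.

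SLC3A2 in JEKO went from 216, 229 and 234 CPM to 471, 232 and 406 (0.71, SE 0.255, adjusted p = 0.0465, edgeR), with replicate 2 inside the 24 h range. Its call was lost without 5 of the 6 libraries, all but DMSO 72 h replicate 2 (adjusted p up to 0.174). SLC38A5 fell to 73.5, 49.9 and 55.1 CPM (-0.74, SE 0.221, adjusted p = 0.0221), and its call was lost without DMSO 24 h replicate 3 or DMSO 72 h replicate 2 or 3 (up to 0.107). SLC7A5 had 598, 619 and 706 CPM at 24 h and 1009, 704 and 1160 at 72 h (0.58, adjusted p = 0.0748). Without the 72 h libraries of replicate 2 in both treatments, SLC38A5 was not called (adjusted p = 0.071), while SLC7A5 (0.78, adjusted p = 0.00847) and SLC7A11 (1.21, adjusted p = 0.00986) were, with 28.1% of all genes.

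In MINO 1 of 10 was called over time, where 0.0932% of all genes were. SLC6A9 rose by 2.50 on the log2 scale (SE 0.279, 5.65-fold, adjusted p = 0.0025, edgeR) and was called without any 1 library. All 72 h libraries were above all 24 h libraries for 6 transporters (15.2% of all genes): SLC6A9, SLC7A11 (1.98, SE 0.39, adjusted p = 0.0806), SLC7A5 (0.54, adjusted p = 0.126), SLC3A2 (0.49, adjusted p = 0.108), SLC38A2 (0.35, adjusted p = 0.137) and SLC1A5 (0.30, adjusted p = 0.243). SLC38A5 lay wholly below (-0.38, adjusted p = 0.165), as 17.2% of all genes did. Other fits called some of these: DESeq2 called SLC7A11 (adjusted p = 0.000544), SLC3A2 (0.00212) and SLC38A2 (0.0469) beside SLC6A9, with 6.53% of all genes, and all 36 libraries in 1 fit called SLC7A11 (0.0225), with 3.52%. MINO DMSO 72 h replicate 2 stood furthest from its group of all libraries (root mean square deviation 0.461 on the log2 scale). Without both 72 h libraries of replicate 2, 6 of 10 were called: SLC6A9, SLC7A11, SLC7A5, SLC3A2, SLC43A1 and SLC38A2, with 13.3% of all genes. These comparisons use the DMSO 72 h libraries that also serve as the controls of GS716054 at 72 h, so the rise over time and the fall with treatment are not independent.

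In UPN-1 edgeR and DESeq2 called 0 of 10 over time (2 at an unadjusted p under 0.05, SLC1A4 and SLC43A1), where 1.47% of all genes were called. SLC7A5 had 554, 494 and 681 CPM at 24 h and 555, 247 and 481 at 72 h, opposite in direction to JEKO and MINO by point estimate (-0.42, interval -0.98 to 0.14). SLC6A9 had 4.92, 4.07 and 5.05 CPM at 24 h and 13, 3.27 and 4.83 at 72 h, with replicate 1 alone above the 24 h range. SLC1A4 went from 213, 208 and 238 CPM to 163, 96.4 and 177 (-0.58, adjusted p = 0.0978), without overlap. Whether the change over time differed among lines was not tested.

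**Figure D4:**
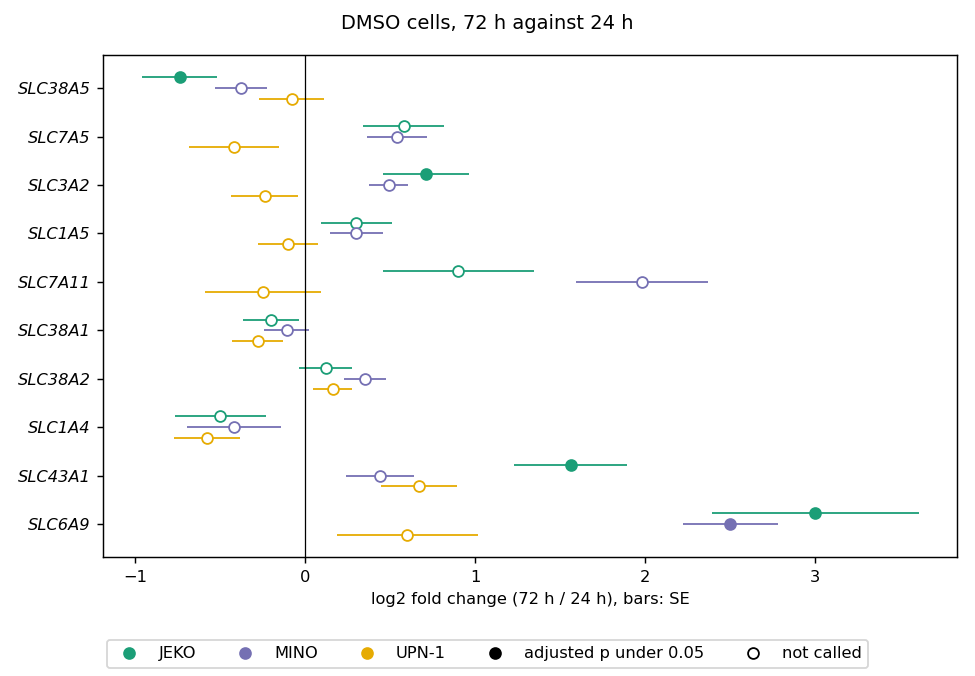
Log2 fold change of DMSO cells at 72 h against 24 h for each transporter by line; bars are standard errors and filled points have an edgeR adjusted p under 0.05. SLC6A9 has the largest values, 3.00 in JEKO and 2.50 in MINO, against 0.60 in UPN-1.

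Other amino acid transporters had a median near that of all genes in MINO. Of 30 further genes of this kind, 15 passed the low-count filter there. At 72 h 1 rose and 1 fell, where 5.56% of all genes were called, with a median log2 fold change of 0.00 against -0.03 over all genes. With the replicate block within time 5 rose and 1 fell, where 20.2% of all genes were called (9.8% lower). SLC7A1, the carrier of cationic amino acids, fell from 238 ± 30.6 to 123 ± 33.5 CPM at 24 h (-0.99, SE 0.209, adjusted p = 0.0309, edgeR) and from 278 ± 36 to 136 ± 21.6 at 72 h (-1.04, adjusted p = 0.0127; n = 3 per group). SLC43A2 (LAT4), a relative of SLC43A1, rose at 72 h from 43.8 ± 5.87 to 80.5 ± 8.81 CPM (0.86, SE 0.143, adjusted p = 0.0046). In JEKO and UPN-1 edgeR called 0 of the 17 and 16 tested with GS716054 at either time, with at most 1 at an unadjusted p under 0.05.

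Genes of the amino acid response around ATF4 fell with the transporters in MINO. Of 23, 20 were tested, and 3 fell at 24 h and 9 at 72 h, while 0 rose, also at an unadjusted p under 0.05 (with the replicate block within time, 7 fell and 1 rose at 24 h, and 15 fell at 72 h, where 9.8% of all genes did; 7.36% did at 24 h). The list's median log2 fold change was -0.35 at 24 h and -1.09 at 72 h. INHBE, an activin subunit and ATF4 target, fell from 20.3 ± 2.38 to 1.32 ± 0.776 CPM at 72 h (-3.97, SE 0.339, adjusted p = 9.05e-05, edgeR), and the stress transcription factor ATF3 from 5.9 ± 0.163 to 1.32 ± 0.352 (-2.18, adjusted p = 0.00394). XPOT, a tRNA exporter, fell at 24 h (-0.82, adjusted p = 0.00572). In JEKO and UPN-1 edgeR called 0 of 22 at either time (at an unadjusted p under 0.05, 0 at 24 h, 5 lower in JEKO and 2 lower and 1 higher in UPN-1 at 72 h), and with the replicate block within time 7 fell in JEKO and 5 in UPN-1 at 72 h, where 1.43% and 3.29% of all genes did.

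The same list rose over time in JEKO DMSO cells, where 17 of 22 were called higher (17.1% of all genes were) with a median of 2.15 against 0.05 over all genes. INHBE rose from 7.51 ± 2.21 to 126 ± 85.1 CPM (4.08, SE 0.694, adjusted p = 0.00155, edgeR) and TRIB3, a pseudokinase that damps ATF4 signalling, from 66.7 ± 10.6 to 453 ± 341 (2.77, adjusted p = 0.00556). Their 72 h libraries varied widely. In MINO 2 of 20 were called higher over time, INHBE (2.78) and SESN2 (1.44, a leucine sensor), both with an adjusted p of 0.0025 by edgeR. Only 0.0932% of all genes were called there. At an unadjusted p under 0.05, 16 of the 20 were higher and 0 lower, and the list's median was 0.90 against 0.04 over all genes. In UPN-1 1 of 22 was called higher, DDIT4 (1.60, adjusted p = 0.0355, edgeR), an inhibitor of mTORC1, where 1.47% of all genes were called. At an unadjusted p under 0.05, 6 were higher and 0 lower, with a median of 0.36 against 0.02.

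With GS716054 in MINO at 72 h, 1 gene of amino acid sensing by mTORC1 was called higher and 1 lower. The same held for glutamine and glutathione metabolism. At that time 5.56% of all genes were called. With the replicate block within time, 4 sensing genes rose and 4 fell, and 3 metabolism genes rose and 2 fell. That fit called 20.2% of all genes. Of 27 sensing genes tested in MINO at 72 h, 1 rose (SESN3, 1.58, adjusted p = 0.0235, edgeR) and 1 fell (MLST8, a subunit of mTORC1, -0.68, adjusted p = 0.0216), with a median of 0.00. Of 15 metabolism genes, GPT2, which makes glutamate and pyruvate from alanine, fell from 138 ± 19.8 to 52.4 ± 1.54 CPM (-1.41, SE 0.144, adjusted p = 0.000336). HMOX1, the heme-degrading oxidative stress enzyme, rose from 39.4 ± 10.8 to 139 ± 28.8 CPM (1.81, SE 0.207, adjusted p = 0.000586). It was also higher at 24 h (1.43, SE 0.205, adjusted p = 0.00593, edgeR). The metabolism list's median at 72 h was -0.13 against -0.03 over all genes. In JEKO DMSO cells over time, 8 of 16 metabolism genes fell (14.6% of all genes did) and 1 rose, with a median of -0.47 against 0.05 over all genes. TXNRD1, a thioredoxin reductase, was among those that fell (-1.05), and GPT2 was the 1 that rose (1.31). In MINO over time the metabolism list had a median of -0.30 against 0.04, with 1 called higher (GPT2, 1.10), 0 called lower by edgeR and 7 lower at an unadjusted p under 0.05.

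MYC moved with the transporters in MINO. It had 509, 545 and 468 CPM with DMSO and 179, 171 and 180 with GS716054 at 24 h, and 625, 804 and 687 against 189, 239 and 232 at 72 h. The treated libraries lay far below the DMSO libraries at both times (-1.55, SE 0.138, adjusted p = 0.000724, and -1.69, SE 0.138, adjusted p = 7.37e-05, edgeR). In JEKO the change was 0.02 and 0.14, and in UPN-1, where DMSO 24 h libraries held 70.1, 58.7 and 101 CPM, it was -0.07 and 0.28. The effect on MYC differed among lines (adjusted p = 0.000497 at 24 h and 4.91e-06 at 72 h). The part of MYC or of the ATF4 genes in the fall of the transporters was not tested. KDM5A, KDM5B and KDM5C, targets of the inhibitor, were detected in all libraries and not called in any of the 6 treatment comparisons, which checks no inhibition, since the agent acts on the enzymes and not on their transcripts.

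Several transporters varied together across libraries. With each line's mean subtracted, the 36 libraries gave a Pearson r over log2 CPM of 0.88 for SLC7A5 with SLC3A2 and 0.80 for SLC7A5 with SLC7A11. It was -0.07 for SLC1A5 with SLC38A1 and -0.15 for SLC1A4 with SLC6A9. The lowest values were -0.60 for SLC38A1 with SLC43A1, -0.58 for SLC38A5 with SLC38A2 and -0.47 for SLC38A1 with SLC6A9. These are descriptions, since the libraries share lines, treatments, times and replicate numbers. Over 13791 genes tested in all 3 lines, the pattern most like that of SLC6A9 was that of GPT2, ATF4 and ASS1 (r 0.94 each). For SLC43A1 it was ATF3 (0.91), PHGDH (0.89) and INHBE (0.87), and for SLC1A5 it was SLC7A1 (0.92).

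SLC7A5 was most like its opposite-strand neighbour ENSG00000260466 (0.93), with which it shares exon bases, and then the glycyl-tRNA synthetase GARS1 (0.92). SLC3A2 followed ENSG00000260570 (0.89) and SLC7A5, and SLC7A11 followed REV3L (0.81). The 3 sodium-coupled carriers had different companions: SFXN4 (0.92) for SLC38A5, RPS6KA3 (0.88) for SLC38A1 and MED13L (0.80) for SLC38A2. SLC1A4 was most like the splicing factor SF1 (0.92).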

How the data were processed

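RNA sequencing was done on 36 libraries. The authors deposited raw read counts per gene, aligned with HISAT2 2.2.1 and counted with HTSeq 0.13.5 on GRCh38, per the submitters' processing notes. RNA came from a Qiagen mRNA kit, per the labels' protocols, and the library's strand is not given in the sources used here. Of all reads, 40.7% to 44.9% were in genes and 43.3% to 45.9% in no feature; the 5 summary lines were left out of the tests. Of 58302 gene IDs, 57532 had a GENCODE 44 symbol.

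The tests used edgeR 4.0.16 under R 4.3.3 (quasi-likelihood test, TMM, filterByExpr with a minimum count of 10 and minimum total of 15), and DESeq2 1.42.0 as an alternative. Each line's 12 libraries were fitted together (8 residual degrees of freedom; 16690 genes in JEKO, 15028 in MINO, 15248 in UPN-1), and all 36 for differences among lines. Calls rest on p-values below 0.05 after Benjamini-Hochberg adjustment across each table. Each SE was the size of the log2 change over the root of its F. CPM are scaled over 36 libraries. The fits were tested on simulated data. Alternatives were DESeq2, other size factors, no or a stricter low-count filter, the replicate block, other sets of libraries in the fit and leaving out each library. Same-numbered DMSO and GS716054 libraries of a time were taken as pairs where all 3 correlations of their deviations exceeded 0.1, which held for MINO and UPN-1 (0.12 to 0.28 at 24 h, 0.29 to 0.62 at 72 h) and JEKO at 72 h (0.35 to 0.60) and not for JEKO at 24 h (0.07 to 0.27); DMSO 24 h and 72 h libraries were not paired. The transporters and lists were chosen with earlier results of these data known. Besides the 10 transporters, named genes are up to 2 rising and 2 falling called genes per list and comparison whose mean log2 CPM was 1 or more, MYC, KDM5A, KDM5B and KDM5C, and the 3 genes with the most similar pattern per transporter. Figures were drawn with matplotlib 3.10.9.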

Additional observations from a re-analysis of the deposited data

Results flagged for a closer look

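The effect of GS716054 differed among the 3 lines for SLC38A5 at 24 h (adjusted p = 0.021, edgeR): the log2 fold change was -1.44 in MINO, -0.11 in JEKO and 0.02 in UPN-1. It also differed for SLC7A11 at 72 h (adjusted p = 0.0338): -2.18 in MINO, 0.68 in JEKO and -0.40 in UPN-1. Both came from a test of the difference itself. SLC38A5 was lost without replicate 1, 2 or 3 of every group (adjusted p 0.818, 0.125 and 0.292) and SLC7A11 without replicate 1 or 3 (0.426 and 0.796).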

How the results depend on the processing

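Across the alternatives, no transporter called in the edgeR fit changed direction. Counts of transporters called moved as follows, and percentages give the share of all genes tested that the same fit called; the causes were not tested. With no low-count filter, 7 were called over time in JEKO DMSO cells (17.9%), 2 in MINO (6.32%) and 2 in UPN-1 (6.43%), the effect differed among lines for 2 at 24 h (0.764%) and 4 at 72 h (1.67%), and 8 differed between MINO and JEKO (23.9%). The replicate block over a whole line, whose numbers do not pair the DMSO libraries of 24 h and 72 h, gave 3 over time in MINO (12.1%), 3 in UPN-1 (18.3%) and 3 differing among lines at 72 h (2.94%). It left the count of GS716054 calls in MINO at 4 at 24 h (6.61%) and gave 8 at 72 h (10.2%). The replicate block within time, an alternative added after seeing the data, gave 1 in UPN-1 at 72 h (7.47%) and 3 and 6 differing among lines at 24 h (5.74%) and 72 h (9.79%); it moved no other count of transporters by over 1.5 times. With only the 6 libraries compared, a fit with fewer residual degrees of freedom, GS716054 calls in MINO came to 6 at 24 h (18.2%) and 2 at 72 h (0.691%). Over time in MINO, all 36 libraries in 1 fit gave 2 (3.52%), DESeq2 gave 4 (6.53%), and leaving out both 72 h libraries of replicate 2 (also added after seeing the data) gave 6 (13.3%), and 5 over time in JEKO (28.1%). Without 1 library, calls ranged from 1 to 3 for GS716054 in MINO at 24 h (0.175% to 0.59%) and 6 to 7 at 72 h (2.33% to 9.86%). Over time they ranged from 2 to 4 in JEKO (15.8% to 28.5%), 1 to 2 in MINO (0.0259% to 1.53%) and 0 to 2 in UPN-1 (0.00636% to 19.6%). The 2 in UPN-1 came with the 19.6%. Without 1 replicate number, calls ranged from 0 to 0 among lines at 24 h (0% to 0.0609%) and 0 to 1 at 72 h (0.0275% to 1.18%). Between lines they ranged from 3 to 6 for MINO and JEKO (34.3% to 43.5%) and 3 to 4 for UPN-1 and JEKO (31.1% to 40.6%). For UPN-1 and MINO the range was 1 to 6 (30% to 38.8%). Depth limits SLC7A11 and SLC6A9, the transporters with the fewest reads.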
